A study of Homo sapiens with 12 samples.

Results

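The genes described here are those of the T cell receptor loci: every row of the deposited expression table named as a variable, diversity, joining or constant segment of the alpha, beta, delta or gamma locus. There were 226 such rows among the 61466 rows of the table. RNA sequencing had been done in Farage and SU-DHL-8, which are 2 established human cell lines of diffuse large B cell lymphoma, labelled wild type and of lymph node origin. Morusinol, a prenylated flavonoid of mulberry root bark, was given for 12 h and compared with vehicle over the same time. The 4 groups were Farage with morusinol, Farage control, SU-DHL-8 with morusinol and SU-DHL-8 control, with 3 libraries in each and 12 in all. Each line stands for itself alone, the labels read here give no morusinol dose, and they do not say whether the 3 libraries of a group came from separate cultures, so that p-values measure only the spread between these libraries.

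The T cell receptor is a pair of chains, alpha with beta or gamma with delta, and each chain is encoded by a locus in which variable (V), in some loci diversity (D), and joining (J) segments are cut and joined by the RAG recombinase before the product is spliced to a constant (C) exon. Unrearranged loci are also transcribed, as so-called germline transcripts, which can run across many J segments into the constant region. The delta locus lies inside the alpha locus, between the alpha V and J segments. B cells use the immunoglobulin loci for their own receptor and are not known for a T cell receptor protein at the surface.

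Of the 226 rows, 115 belonged to the alpha locus (54 TRAV, 60 TRAJ and TRAC), 84 to the beta locus (67 TRBV, 1 TRBD, 14 TRBJ, TRBC1 and TRBC2), 11 to the delta locus (3 TRDV, 3 TRDD, 4 TRDJ and TRDC) and 16 to the gamma locus (12 TRGV, 2 TRGJ, TRGC1 and TRGC2). In GENCODE release 29 on GRCh38 the alpha and delta loci span chr14:21621838-22552154, the beta locus chr7:142299177-142813399 and the gamma locus chr7:38239580-38368169. Of the TRBV rows, 8 are displaced copies on chromosome 9. A value above 0 was listed for 140 rows in at least 1 library, and 86 rows were listed at 0 in all 12. The 83 rows with at least 1 FPKM (fragments scaled by the length of the row in kilobases and by the depth of the library) in at least 3 libraries entered the tests: TRAC, all 60 TRAJ, 2 TRAV, TRDC, 3 TRDJ, TRBC1, TRBC2, 5 TRBJ and 9 TRGV, with no TRBV, TRGJ or TRGC row among them.

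Most of the rows with signal in Farage were J segments, which are very short exons. The segments on which the comparisons below turn are printed here, 5′ to 3′, from the GENCODE release 29 transcripts, because they show how short a sequence each value rests on. Capitals mark the motif TTTGGNNNNGGN or TTCGGNNNNGGN, the codons for the phenylalanine, glycine, any residue, glycine stretch that defines a J segment, searched on the coding strand. The first 2 segments had the highest mean levels in Farage, the next 2 were higher with morusinol in Farage, and the 5 after them were lower with morusinol in Farage. Of these, TRAJ30 and TRAJ4 passed the filter described above only with the Farage control libraries, so they are shown as a description.
TRAJ44: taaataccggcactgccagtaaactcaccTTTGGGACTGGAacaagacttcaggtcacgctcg
TRAJ10: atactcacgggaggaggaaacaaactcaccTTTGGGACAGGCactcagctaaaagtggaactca
TRAJ53: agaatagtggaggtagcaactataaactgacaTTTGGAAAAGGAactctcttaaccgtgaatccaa
TRAJ45: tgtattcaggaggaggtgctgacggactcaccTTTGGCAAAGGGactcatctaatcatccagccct
TRAJ33: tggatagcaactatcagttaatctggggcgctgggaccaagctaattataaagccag
TRAJ30: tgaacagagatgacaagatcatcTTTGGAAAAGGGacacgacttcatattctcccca
TRAJ24: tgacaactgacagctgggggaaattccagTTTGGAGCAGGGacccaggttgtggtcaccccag
TRAJ14: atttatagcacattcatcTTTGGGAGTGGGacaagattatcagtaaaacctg
TRAJ4: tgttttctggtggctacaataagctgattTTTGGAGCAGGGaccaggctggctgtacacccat
The delta segments TRDJ1, TRDJ4 and TRDJ2 and the beta segment TRBJ2-7 are shown for the same reason.
TRDJ1: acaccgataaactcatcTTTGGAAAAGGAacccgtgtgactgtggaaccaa
TRDJ4: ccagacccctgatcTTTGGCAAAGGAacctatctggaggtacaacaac
TRDJ2: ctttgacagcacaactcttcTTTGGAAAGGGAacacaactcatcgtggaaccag
TRBJ2-7: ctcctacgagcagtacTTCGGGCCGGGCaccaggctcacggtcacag
All of these lie on the plus strand of GRCh38, the alpha segments with TRAJ53 at chr14:22483004-22483069, TRAJ45 at chr14:22493925-22493990, TRAJ44 at chr14:22494821-22494883, TRAJ33 at chr14:22508602-22508658, TRAJ30 at chr14:22512852-22512908, TRAJ24 at chr14:22519969-22520031, TRAJ14 at chr14:22530327-22530378, TRAJ10 at chr14:22533497-22533560 and TRAJ4 at chr14:22542199-22542261. The delta segments follow with TRDJ1 at chr14:22450089-22450139, TRDJ4 at chr14:22455249-22455296 and TRDJ2 at chr14:22456689-22456742, and TRBJ2-7 lies at chr7:142797456-142797502. The motif was found in 53 of 60 TRAJ (88.3%), 4 of 4 TRDJ, 13 of 14 TRBJ and 2 of 2 TRGJ segments, and in the first 60 bases of 1605 of 206249 other transcripts (0.778%). TRAJ33 was among the 7 TRAJ segments without these letters.

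The length of these rows sets their precision. At the median TRAJ length of 61 bases, 1 fragment was worth 1.30, 1.75 and 1.53 FPKM in the Farage morusinol libraries, against 0.865, 0.882 and 0.988 FPKM in the Farage control libraries, using depths estimated from the table. Those depths were 9.37 to 12.7 M (mega) fragments for Farage morusinol and 16.6 to 19.0 M for Farage control, and 6.05 to 15.0 M for SU-DHL-8 morusinol and 14.2 to 15.2 M for SU-DHL-8 control. Of the 707 values above 0 among the 226 rows, 46.8% stood for fewer than 5 fragments, and the highest TRAJ value in any Farage library stood for 39.0. A row at 0 is therefore called listed at 0 and is not shown to be silent.

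Markers of B cells were expressed throughout, and the CD3 chains of the T cell receptor complex were at or near 0. The 5 B cell markers MS4A1, CD79A, CD79B, PAX5 and CD22 summed to 569 to 612 FPKM in Farage morusinol libraries, 892 to 943 in Farage control, 192 to 196 in SU-DHL-8 morusinol and 304 to 318 in SU-DHL-8 control. CD3D, CD3E and CD3G, which carry the receptor's signal in T cells, did not exceed 0.0803 FPKM in any of the 12 libraries, while CD247, the zeta chain of the complex, had 0.232 to 0.703 FPKM. The 12 T cell markers summed to 25.1 to 28.1 FPKM in Farage morusinol libraries and 60.4 to 67.0 in Farage control, and to 0.763 to 1.05 in SU-DHL-8 morusinol libraries and 0.899 to 1.24 in SU-DHL-8 control. Nearly all of that sum in Farage was LCK, a Src-family kinase of T cell receptor signalling. The 8 markers of natural killer and cytotoxic cells summed to at most 5.24 FPKM in any library, and the 7 myeloid markers to at most 1.78 FPKM.

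The untreated lines differed first in the alpha locus. TRAC (ENSG00000277734), the only alpha constant region, had 75.6, 66.4 and 68.0 FPKM in the Farage control libraries, against 2.08, 2.70 and 2.11 FPKM in the SU-DHL-8 control libraries. Every Farage value was far above every SU-DHL-8 value. The means were 70.0 ± 4.94 FPKM in Farage control and 2.30 ± 0.349 FPKM in SU-DHL-8 control (SD, n = 3 each), and the difference of log2(FPKM + 1) was 4.43 ± 0.172 (SE; adjusted p = 2.74e-09, limma). Of the 83 rows tested, 71 were higher and 3 lower in Farage control, where 64.1% of all 17574 genes tested were called, 34.5% higher and 29.6% lower. Because a row that is at 0 in SU-DHL-8 passed the filter only through Farage, these counts describe the rows that passed and not the whole set.

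All 60 TRAJ rows had signal in Farage, and hardly any had it in SU-DHL-8. The number of TRAJ rows above 0 was 59, 58 and 55 of 60 in the Farage morusinol libraries and 60 in each Farage control library, against 10, 4 and 7 in the SU-DHL-8 morusinol libraries and 5, 2 and 5 in the SU-DHL-8 control libraries. In SU-DHL-8, 31 TRAJ rows were listed at 0 in all 6 libraries, and no TRAJ row was above 0 in more than 2 of them. Group means of single TRAJ rows ran from 1.09 to 25.2 FPKM (median 8.93) in Farage morusinol and from 2.92 to 27.9 FPKM (median 12.9) in Farage control, while no SU-DHL-8 group mean passed 1.75 FPKM. In Farage, then, the signal covered the whole array and was not confined to a few J segments.

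The J segments nearest the top were spread over the array. TRAJ10 had 27.8, 16.7 and 14.6 FPKM in Farage morusinol and 23.5, 31.9 and 28.3 in Farage control. TRAJ44, which lies farther upstream, had 27.6, 22.0 and 25.9 FPKM in Farage morusinol and 23.4, 14.9 and 23.5 in Farage control, and TRAJ12 had 10.5, 16.01 and 19.4 in Farage morusinol and 22.0, 34.5 and 18.6 in Farage control. The groups overlapped for each of these 3 segments, though TRAJ10 was called lower with morusinol, a call lost under 11 of 15 alternatives (adjusted p up to 0.168, limma). All 3 were listed at 0 in every SU-DHL-8 control library.

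V segments gave little signal beside the J segments. Joined over the 54 TRAV rows, that is, with fragments summed and divided by the summed length, the level was at most 0.104 FPKM in any library. TRAV2, the alpha V segment with the highest level in Farage control, had 0, 0.307 and 0.134 FPKM in Farage morusinol, against 1.97, 1.24 and 1.99 FPKM in Farage control, and stood at 0 throughout SU-DHL-8. The Farage groups did not overlap. TRAV2 reached 1 FPKM in the 3 Farage control libraries alone and passed the filter only through them, so its test is not given.

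**Figure D1:**
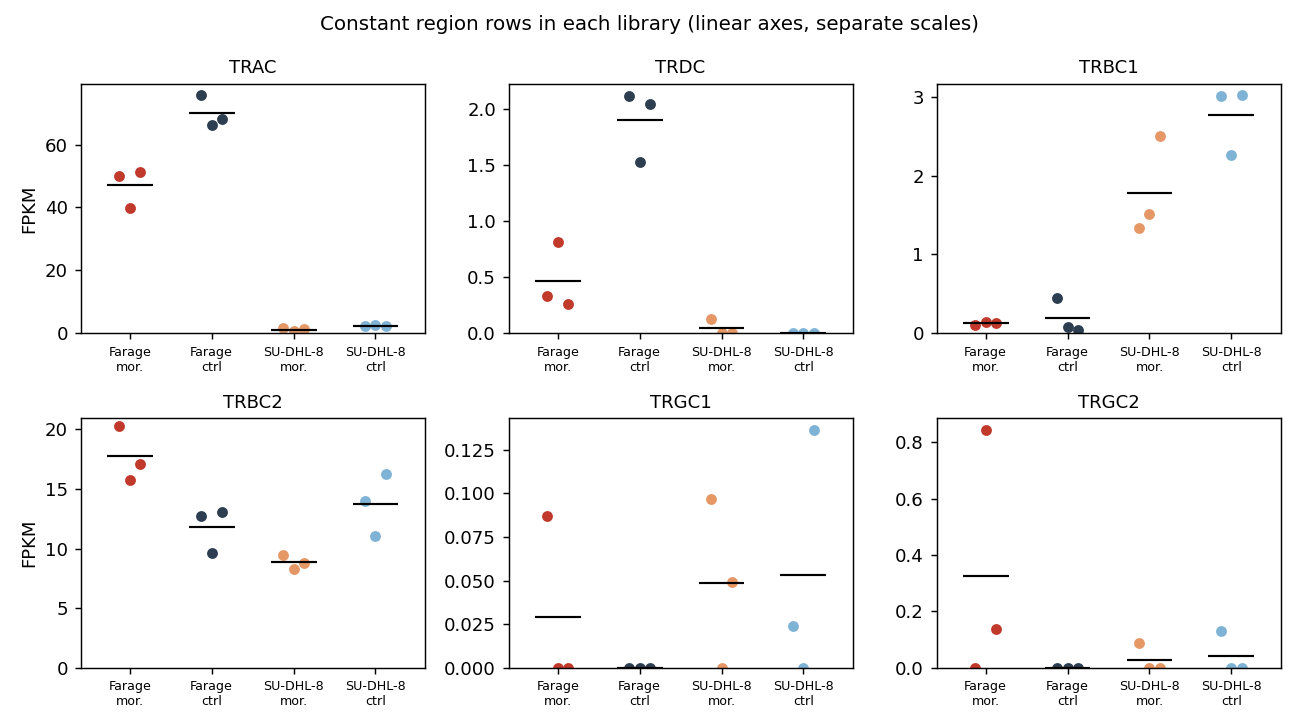
FPKM of the 6 constant region rows in each library (points) with the group mean (line), on linear axes that start at 0 and differ between panels. TRAC stood at 39.96 to 51.3 FPKM in Farage morusinol and 66.4 to 75.6 in Farage control and under 3 in SU-DHL-8, TRBC2 was present in both lines and moved in opposite directions, and TRGC1 and TRGC2 were near 0.

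The delta locus had low signal in Farage and almost none in SU-DHL-8, with the exception of a TRDC value of 0.123 FPKM in 1 SU-DHL-8 morusinol library and of isolated TRDV2 fragments in SU-DHL-8. TRDC (ENSG00000211829), the delta constant region, had 0.329, 0.816 and 0.259 FPKM in Farage morusinol, against 2.12, 1.53 and 2.05 FPKM in Farage control, and was listed at 0 in the 3 SU-DHL-8 control libraries. TRDJ1 had 6.20, 2.09 and 3.66 FPKM in Farage morusinol and 7.24, 4.22 and 8.87 in Farage control, and the 4 TRDJ rows were listed at 0 in all 6 SU-DHL-8 libraries. TRDJ1, which passed the filter through Farage libraries alone, was called higher in Farage control than in SU-DHL-8 control. TRDC, TRDJ2 and TRDJ4 were also higher there, but they passed the filter only through the Farage control libraries. Their difference between the lines is therefore a description. An unnamed transcript on the minus strand, AC244502.1, shares exon sequence with TRDC and spans 17 further rows of the loci from its introns, 8 of them TRAJ rows (TRAJ61 to TRAJ54). It had 1.12 ± 0.0271 FPKM in Farage morusinol and 2.06 ± 0.177 in Farage control (SD, n = 3 each). The strand of counting is not given, so its fragments and those of TRDC cannot be told apart where they overlap.

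The beta locus had signal in both lines, mainly at its 3′ end. TRBC2 (ENSG00000211772), the downstream of the 2 beta constant regions, had 20.3, 15.8 and 17.1 FPKM in Farage morusinol and 12.7, 9.62 and 13.1 in Farage control, and 9.43, 8.28 and 8.82 in SU-DHL-8 morusinol and 13.99, 11.1 and 16.3 in SU-DHL-8 control. The control libraries of the lines overlapped, with a difference of -0.20 ± 0.147 on the log2(FPKM + 1) scale, Farage minus SU-DHL-8 (SE; adjusted p = 0.255, limma). TRBC1 (ENSG00000211751), the upstream constant region, had 0.104, 0.140 and 0.123 FPKM in Farage morusinol and 0.451, 0.0708 and 0.0397 in Farage control, and 1.34, 1.52 and 2.51 in SU-DHL-8 morusinol and 3.02, 2.27 and 3.03 in SU-DHL-8 control. TRBC1 was lower in Farage control than in SU-DHL-8 control, with a difference of -1.68 ± 0.179 (SE). It reached 1 FPKM in SU-DHL-8 libraries alone and passed the filter only through that line, so this difference is a description. The TRBC1 and TRBC2 transcripts are identical at 81.9% of aligned positions, and fragments from their shared stretches may have been assigned to either.

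Beta joining segments had their signal almost only in the downstream cluster, in both lines. All rows of the upstream cluster, TRBJ1, were listed at 0 except in 1 Farage control library and 1 SU-DHL-8 control library. In the downstream cluster, TRBJ2-7, the segment nearest TRBC2, had the highest mean over the 6 libraries of each line, with 12.6, 15.9 and 4.97 FPKM in Farage morusinol and 5.05, 6.30 and 0.642 in Farage control, and with 0.939, 3.51 and 4.98 in SU-DHL-8 morusinol and 5.59, 2.996 and 8.63 in SU-DHL-8 control. These groups overlapped within each line. In SU-DHL-8 morusinol alone TRBJ2-3 was higher, at a mean of 4.17 FPKM against 3.14 for TRBJ2-7. TRBJ2-3 followed with means over the 6 libraries of 2.04 FPKM in Farage and 3.77 in SU-DHL-8, and then TRBJ2-6 with 1.09 FPKM in Farage and TRBJ2-2P with 1.45 in SU-DHL-8. No TRBJ row was called in any of the 4 comparisons, and the downstream cluster held only 23.5 estimated fragments in Farage morusinol, 26.5 in Farage control, 15 in SU-DHL-8 morusinol and 35.5 in SU-DHL-8 control. The 67 TRBV rows had no group mean of 1 FPKM or more in any group.

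**Figure D2:**
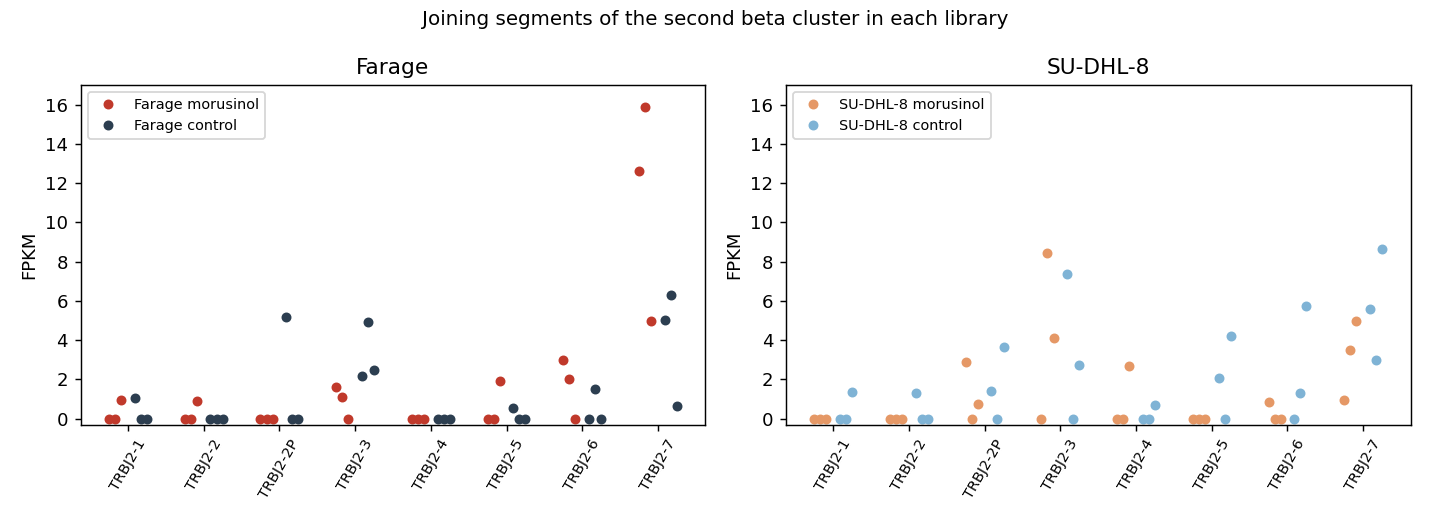
FPKM of the 8 joining segments of the downstream beta cluster in each library (points), Farage at the left and SU-DHL-8 at the right, on linear axes. TRBJ2-7 had the highest values in Farage, up to 15.9 FPKM with morusinol and 6.30 FPKM in control, and most other segments were listed at 0 in some libraries of each group.

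The gamma locus showed a different set of V segments in each line and almost no constant region signal in either. TRGC1 and TRGC2 did not exceed 0.136 and 0.843 FPKM in any library, and neither entered the tests. In Farage control the V segments at the 5′ end of the locus were the higher ones: TRGV3 had 3.24, 2.65 and 3.03 FPKM and TRGV5 had 2.20, 2.14 and 3.61 FPKM, against at most 0.656 FPKM for TRGV3 and 0 for TRGV5 in SU-DHL-8 control. TRGV1, TRGV2, TRGV3, TRGV4 and TRGV5 were all called higher in Farage control than in SU-DHL-8 control. In SU-DHL-8 the signal lay downstream, on TRGV7 and TRGV9, and both were called lower in Farage control. TRGV9, the V segment of the main gamma delta T cell population of human blood, was listed at 0 in all 3 Farage control libraries, against 2.54, 3.25 and 4.05 FPKM in SU-DHL-8 control.

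Some limits apply to these gamma rows. TRGV7 and TRGV9 reached 1 FPKM in SU-DHL-8 libraries alone and so passed the filter only through that line. TRGV3 and TRGV5 passed it only with the Farage libraries, where they were high. The calls of these gamma rows between the lines are given as a description. TRGV3 and TRGV5 are identical at 94.0% of aligned positions, so their fragments may have been split between them. The antisense gene TRG-AS1 spans TRGV1, TRGV2, TRGV3, TRGV4, TRGV5 and TRGV5P from its introns, and it too was higher in Farage, with 1.36 ± 0.0498 FPKM in Farage morusinol and 1.72 ± 0.0620 in Farage control, and 0.492 ± 0.0891 in SU-DHL-8 morusinol and 0.354 ± 0.0312 in SU-DHL-8 control (SD, n = 3 each). Its part in the V segment values was not tested.

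With morusinol in Farage, TRAC and some alpha J segments fell and TRBC2 rose, while most TRAJ rows were not called. Of the 83 rows tested, 16 fell and 3 rose, where 21.2% and 21.9% of all genes tested fell and rose. The share of rows called was 22.9%, below the 43.1% called among all genes tested, so the count as such does not set these loci apart. The median log2(FPKM + 1) difference was -0.48 over the 83 rows and -0.03 over all genes tested. The rows that fell were TRAC, TRAV2, TRDC, TRDJ2, TRDJ4 and 11 TRAJ rows (TRAJ57, TRAJ47, TRAJ33, TRAJ30, TRAJ28, TRAJ24, TRAJ18, TRAJ14, TRAJ10, TRAJ9 and TRAJ4), and those that rose were TRBC2, TRAJ53 and TRAJ45. Of the 16, 6 (TRAV2, TRDC, TRDJ2, TRDJ4, TRAJ30 and TRAJ4) passed the filter only with the Farage control libraries, where they were high. Their values below are a description without a test, and they lend the count no weight. Fewer cells that transcribe a locus and less RNA per cell cannot be told apart in bulk libraries.

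TRAC had 49.97, 39.96 and 51.3 FPKM in the Farage morusinol libraries, against 75.6, 66.4 and 68.0 FPKM in the Farage control libraries. All morusinol values lay below all control values. The means were 47.1 ± 6.19 FPKM with morusinol and 70.0 ± 4.94 FPKM in control (SD, n = 3 each), a difference of -0.57 ± 0.172 on the log2(FPKM + 1) scale (SE; adjusted p = 0.0211, limma). The call was lost under 7 of 15 alternatives, with an adjusted p of up to 0.155 in limma. Among these were the fits without control library 1, without morusinol library 2 and with values rescaled to TPM.

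The TRDC values in Farage, given above, were lower with morusinol, without overlap. TRDJ4 was listed at 0 in all 3 Farage morusinol libraries, against 3.30, 7.28 and 3.77 FPKM in Farage control. TRDJ2 was likewise listed at 0 in all 3 Farage morusinol libraries, against 1.95, 9.96 and 1.12 FPKM in Farage control. No fold is given for TRDJ4 and TRDJ2, which rested on 12.5 and 13 estimated fragments over the 3 control libraries, and the morusinol libraries were the shallower ones. TRDJ1 was lower with morusinol on average, with 3.98 ± 2.07 FPKM against 6.78 ± 2.36 in control (SD, n = 3 each), but its groups overlapped and the difference of -0.68 ± 0.288 (SE) was not called (adjusted p = 0.0846, limma). Joined over the 4 TRDJ rows, the level was 1.49, 0.504 and 1.32 FPKM in Farage morusinol, against 3.11, 5.71 and 3.27 in Farage control, without overlap.

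Along the TRAJ array the difference was uneven. The mean with morusinol was below the control mean in 46 of 60 rows, and the median ratio of means was 0.717. Single rows varied widely, and in 12 of 60 all morusinol values lay below all control values, while in 1 row all lay above. Among all genes tested 25.3% were below and 25.8% above in this sense. Joined over the 60 rows, the level was 9.51, 9.80 and 9.40 FPKM in Farage morusinol, against 12.5, 14.8 and 12.6 in Farage control, a ratio of 0.720.

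The part of the array nearer TRAC was the lower one with morusinol. In the downstream 30 segments, TRAJ31 to TRAJ1, the joined level was 8.41, 9.08 and 8.50 in Farage morusinol, against 13.5, 18.0 and 14.1 in Farage control, and 28 of 30 segments had the lower mean with morusinol. In the upstream 30, TRAJ61 to TRAJ32, it was 10.6, 10.5 and 10.3 in Farage morusinol, against 11.5, 11.6 and 11.2 in Farage control, and 18 of 30 segments had the lower mean with morusinol. Neither pair of groups overlapped, and the ratios of means were 0.571 downstream and 0.917 upstream. In 6 runs of 10 segments from the 5′ end the ratios were 1.21, 0.919, 0.736, 0.467, 0.698 and 0.534, so that only the first run was higher with morusinol. These divisions were chosen after the values were seen, they carry no test, and the difference between the parts was not tested. With values rescaled to TPM the ratios were 0.578 downstream and 0.925 upstream, and with protein-coding genes scaled to the same total 0.598 and 0.961.

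**Figure D3:**
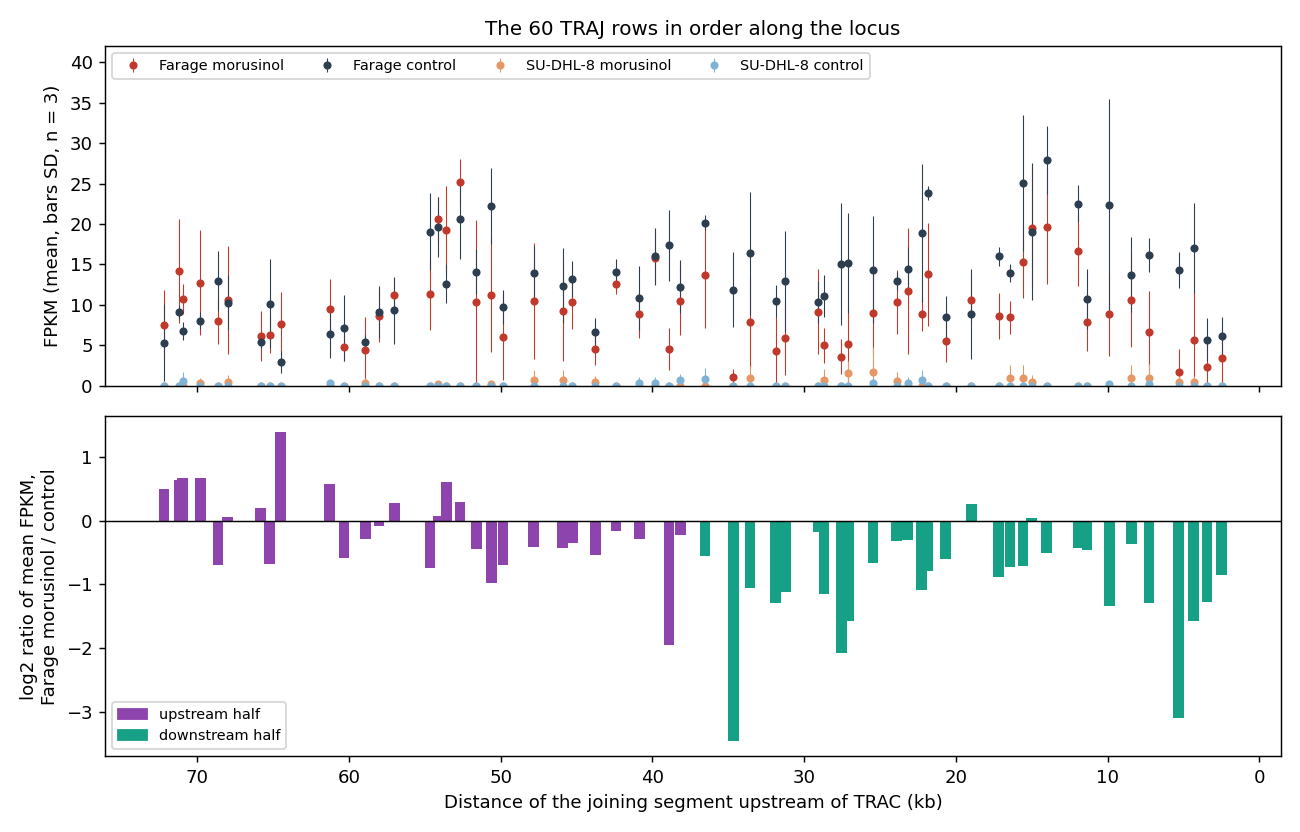
The 60 TRAJ rows in their order on the chromosome, by distance upstream of TRAC in kilobases. The upper panel gives mean FPKM with SD bars (n = 3, cut off at 0) for the 4 groups, and the lower panel the log2 ratio of mean FPKM, Farage morusinol over Farage control, coloured by the upstream and downstream 30 rows; 28 of the downstream 30 bars and 18 of the upstream 30 point down.

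Among the TRAJ rows that passed the filter without the Farage control libraries, the call held under each alternative for TRAJ33, TRAJ24 and TRAJ14. TRAJ30 and TRAJ4 passed only with those libraries, so their values are given beside them as a description. TRAJ30 had 1.39, 1.87 and 0 FPKM in Farage morusinol, against 6.94, 16.04 and 12.7 in Farage control. TRAJ33 had 2.77, 7.49 and 3.28 FPKM in Farage morusinol, against 12.96, 21.7 and 17.5 in Farage control. For both, every morusinol value lay below every control value, and the log2(FPKM + 1) difference of TRAJ33 was -1.81 ± 0.268 (SE; adjusted p = 0.000308, limma).

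TRAJ4 had 5.02, 0 and 0 FPKM in Farage morusinol, against 11.7, 15.4 and 15.8 in Farage control. TRAJ24 had 3.14, 1.69 and 5.93 FPKM in Farage morusinol, against 21.4, 17.1 and 6.70 in Farage control, and TRAJ14 had 6.08, 8.21 and 11.7 in Farage morusinol, against 14.7, 17.1 and 16.2 in Farage control. None of these groups overlapped, though 1 control value of TRAJ24 came close to the highest morusinol value. The differences were -1.78 ± 0.390 for TRAJ24 and -0.86 ± 0.165 for TRAJ14 (SE; adjusted p = 0.00387 and 0.00173, limma).

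The segments that rose did so less firmly than TRAJ33, TRAJ24 and TRAJ14 fell. Calls of other TRAJ rows that fell were also lost under some of 15 alternatives. The number was 11 for TRAJ10, 9 each for TRAJ57 and TRAJ9, 7 for TRAJ47, 4 for TRAJ28 and 1 for TRAJ18. TRAJ53 had 3.59, 8.09 and 11.3 FPKM in Farage morusinol, against 4.40, 1.63 and 2.74 in Farage control, and TRAJ45 had 22.7, 12.9 and 21.9 in Farage morusinol, against 13.2, 14.7 and 10.1 in Farage control. Both pairs of groups overlapped. The adjusted p values were 0.0221 for TRAJ53, with a difference of 1.09 ± 0.332, and 0.0390 for TRAJ45, with 0.54 ± 0.188 (SE, limma). These calls were lost under 7 and 9 of 15 alternatives, including fits without single libraries of either group, with adjusted p up to 0.0913 and 0.143 in limma.

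**Figure D4:**
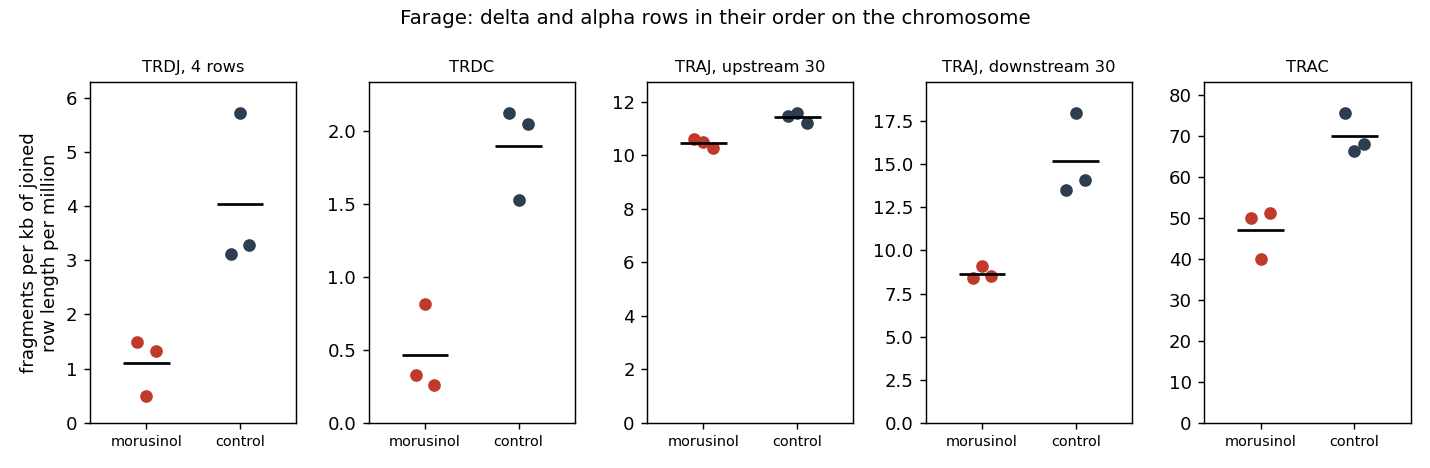
Levels in the 6 Farage libraries (points, with the group mean as a line) for the delta and alpha rows in their order on the chromosome, as FPKM over the joined row length, on axes that start at 0. Morusinol libraries lie below control libraries in each panel, by least in the upstream 30 TRAJ rows, at 10.3 to 10.6 against 11.2 to 11.6.

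TRBC2 ran the other way from the alpha and delta rows in Farage. It averaged 17.7 ± 2.34 FPKM in Farage morusinol and 11.8 ± 1.91 in Farage control (SD, n = 3 each), without overlap, and rose by 0.55 ± 0.147 on the log2(FPKM + 1) scale (SE; adjusted p = 0.0112, limma). TRBJ2-7 was higher with morusinol on average, at 11.2 ± 5.61 against 3.996 ± 2.97 FPKM in control (SD, n = 3 each), but was not called, with a difference of 1.41 ± 0.643 (SE; adjusted p = 0.104, limma). None of the 9 TRGV rows tested was called with morusinol in Farage. The nearest were TRGV1, with 1.02, 0.230 and 1.81 FPKM in Farage morusinol against 2.38, 2.20 and 1.69 in Farage control, and TRGV3, with 2.35, 1.49 and 1.83 against 3.24, 2.65 and 3.03 (adjusted p = 0.0562 and 0.0865, limma).

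In SU-DHL-8 with morusinol, the gamma V segments TRGV9 and TRGV7 rose while TRAC and TRBC2 fell. Of the 83 rows tested, 3 rose (TRGV9, TRGV7 and TRAV30) and 2 fell (TRAC and TRBC2), where 25.1% and 21.6% of all genes tested rose and fell. All 5 calls held under each alternative in which they were tested, but TRAV30 passed the filter only through the SU-DHL-8 morusinol libraries, so its values below are a description. The share called, 6.02%, was far below the 46.8% called among all genes tested, and most of the 83 rows were at or near 0 in SU-DHL-8.

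TRGV9 had 11.8, 9.38 and 11.2 FPKM in the SU-DHL-8 morusinol libraries, against 2.54, 3.25 and 4.05 FPKM in the SU-DHL-8 control libraries. The lowest morusinol value was above the highest control value. The means were 10.8 ± 1.26 and 3.28 ± 0.760 FPKM (morusinol and control, SD, n = 3 each), a difference of 1.47 ± 0.127 on the log2(FPKM + 1) scale (SE; adjusted p = 4.45e-06, limma). With 1735 bases of annotated exon, TRGV9 rested on 622 estimated fragments in the morusinol libraries and 251 in the control libraries. It was the best measured row of the gamma locus.

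TRGV7, annotated as a V pseudogene, had 5.63, 6.78 and 6.72 FPKM in SU-DHL-8 morusinol, against 3.35, 2.09 and 1.25 in SU-DHL-8 control. The groups did not overlap, and the difference was 1.24 ± 0.215 (SE; adjusted p = 0.000720, limma). TRGV8, which lies between TRGV7 and TRGV9, had 2.07, 1.06 and 2.50 FPKM in SU-DHL-8 morusinol and 1.33, 0.301 and 0.723 in SU-DHL-8 control, overlapped and was not called (0.69 ± 0.282, SE; adjusted p = 0.0679, limma). Joined over the 12 TRGV rows, the level was 3.51, 2.91 and 3.59 FPKM in SU-DHL-8 morusinol, against 1.07, 1.03 and 1.24 in SU-DHL-8 control. The constant regions TRGC1 and TRGC2 stayed near 0 in these same libraries.

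**Figure D5:**
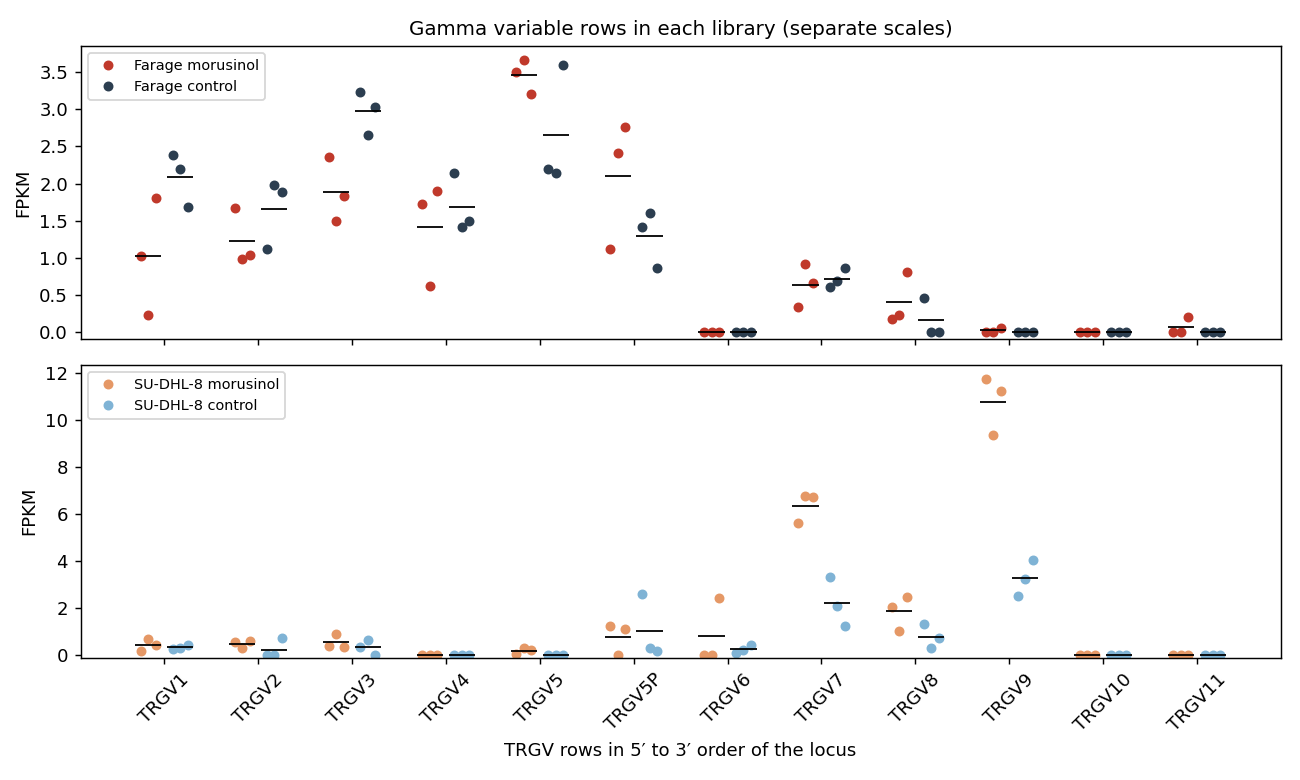
FPKM of the 12 gamma V rows in each library (points) with the group mean (line), in their 5′ to 3′ order, Farage above and SU-DHL-8 below, on linear axes of different scale. In SU-DHL-8, TRGV7 and TRGV9 stood higher with morusinol, TRGV9 at 9.38 to 11.8 FPKM against 2.54 to 4.05 in control; in Farage the signal lay on TRGV1 to TRGV5 and TRGV5P.

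Some alpha V segments appeared in SU-DHL-8 with morusinol. TRAV30 had 1.31, 2.21 and 4.16 FPKM in SU-DHL-8 morusinol and stood at 0 in the 3 control libraries of that line. TRAV9-2 had 2.46, 1.68 and 0.509 FPKM in SU-DHL-8 morusinol and was listed at 0 in the other 9 libraries, but did not reach the filter. Over all 54 TRAV rows the estimated fragments numbered 63.0 in the SU-DHL-8 morusinol libraries and 2 in the SU-DHL-8 control libraries. The TRAJ rows together held 29.5 estimated fragments in SU-DHL-8 morusinol and 13.5 in SU-DHL-8 control, and no single TRAJ row was called.

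TRAC and TRBC2 fell with morusinol in SU-DHL-8. TRAC had 1.49, 0.507 and 1.26 FPKM with morusinol, against 2.08, 2.70 and 2.11 in SU-DHL-8 control, without overlap, and fell by 0.69 ± 0.172 on the log2(FPKM + 1) scale (SE; adjusted p = 0.00703, limma). TRBC2 averaged 8.84 ± 0.576 FPKM with morusinol and 13.8 ± 2.62 FPKM in SU-DHL-8 control (SD, n = 3 each), also without overlap, and fell by 0.57 ± 0.147 (SE; adjusted p = 0.00818, limma). TRBC1 averaged 1.79 ± 0.629 FPKM with morusinol and 2.77 ± 0.436 in SU-DHL-8 control (SD, n = 3 each), overlapped and was not called (-0.45 ± 0.179, SE; adjusted p = 0.0619, limma).

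The morusinol responses of the lines were compared directly by the interaction term, the log2(FPKM + 1) response in Farage minus that in SU-DHL-8. Of the 83 rows tested, 13 differed, 1 with the higher and 12 with the lower response in Farage, where 34.9% of all genes tested differed, 17.3% with the higher and 17.6% with the lower response. TRBC2 was the row with the higher response in Farage, by 1.12 ± 0.208 (SE; adjusted p = 0.00200, limma), since it rose in Farage and fell in SU-DHL-8. TRGV9 and TRGV7 had the lower response in Farage, by -1.45 ± 0.180 and -1.32 ± 0.304 (SE; adjusted p = 0.000164 and 0.00706, limma). Both reached 1 FPKM in SU-DHL-8 libraries alone, so their terms largely repeat the rise in that line. The TRAC responses did not differ by this test, with 0.12 ± 0.243 (SE; adjusted p = 0.749, limma). Rows such as TRAJ30 and TRDJ4 that were at 0 in SU-DHL-8 could not fall there, and their interaction terms repeat the Farage difference. Of the 13, 7 (TRAV30 and the 6 rows named above for Farage) passed the filter only through the group where they were high. TRAJ33, TRAJ24 and TRAJ14 reached 1 FPKM in Farage libraries alone, so their terms largely repeat the Farage fall. TRBC2 reached 1 FPKM in every library of both lines.

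Genes that work with the loci were described from lists chosen with earlier results of these data known. Of the 18 receptor partner and signalling genes only LCK and LCP2 entered the tests. LCK had 25.8, 25.2 and 23.5 FPKM in Farage morusinol, against 64.2, 59.1 and 65.3 in Farage control, without overlap, and fell by 1.31 ± 0.110 (SE; adjusted p = 5.32e-06, limma). LCP2, an adaptor of the same pathway that other blood cells also use, rose in both lines, by 0.64 ± 0.0914 in Farage and 0.69 ± 0.0914 in SU-DHL-8 (SE; adjusted p = 0.000227 and 0.000106, limma). In Farage the lower TRAC and TRDC levels went with lower LCK and with lower B cell marker sums, whose values are given above. Of the 5 B cell markers 4 fell, where 21.2% of all genes tested fell. MS4A1 made up most of the lower sum, with a mean of 92.9 FPKM in Farage morusinol and 356 in Farage control. CD79A, with 376 and 391 FPKM in the same groups, was not called (adjusted p = 0.536, limma). The part of these markers in the result was not tested.

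RAG1 and RAG2, the recombinase genes, were far lower in Farage control than in SU-DHL-8 control, by -4.34 and -4.05 on the log2(FPKM + 1) scale. Both passed the filter only through SU-DHL-8, so this difference is a description, and both are among the 6 counted as lower next. Of the 10 genes of the recombination machinery, 9 entered the tests, and 2 were higher and 6 lower in Farage control, where 64.1% of all genes tested were called. With morusinol 0 rose and 4 fell in Farage, where 43.1% of all genes tested were called, and 3 rose and 4 fell in SU-DHL-8, where 46.8% were called. RAG1, the nuclease subunit of the recombinase, had 55.9, 49.7 and 52.9 FPKM in SU-DHL-8 morusinol, against 19.9, 21.3 and 20.4 in SU-DHL-8 control, and rose by 1.32 ± 0.0550 (SE; adjusted p = 2.12e-08, limma). RAG2, its partner, had 24.8, 22.1 and 23.1 FPKM in SU-DHL-8 morusinol, against 15.6, 16.4 and 14.7 in SU-DHL-8 control, and rose by 0.55 ± 0.0577 (SE; adjusted p = 1.80e-05, limma). Neither exceeded 0.186 FPKM in any Farage library. The level of DNTT, the polymerase that adds nucleotides at V(D)J joints, did not exceed 0.449 FPKM in any library.

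Of the 11 factors known to act on these loci in T cells, 9 entered the tests, and 5 rose and 0 fell with morusinol in Farage, while 1 rose and 2 fell in SU-DHL-8, beside the same 43.1% and 46.8% called among all genes tested. LEF1, a factor that binds the alpha enhancer, had 10.5, 9.73 and 11.8 FPKM in Farage morusinol, against 5.20, 4.99 and 4.95 in Farage control, and rose by 0.95 ± 0.0752 (SE; adjusted p = 3.31e-06, limma). TCF7, its relative, had 31.4, 31.1 and 30.2 FPKM in Farage morusinol, against 24.6, 23.1 and 21.5 in Farage control, and rose by 0.41 ± 0.0612 (SE; adjusted p = 0.000333, limma). RUNX3 had 66.4 ± 3.85 FPKM in Farage morusinol and 63.7 ± 5.86 in Farage control (SD, n = 3 each) and was not called with morusinol, and ETS1 had 124 ± 3.39 and 111 ± 4.11 FPKM in the same groups. TCF12 rose by 0.71 ± 0.0480 in Farage (SE, adjusted p = 1.09e-06, limma). In SU-DHL-8 the differences were 0.75 ± 0.0403 for ETS1, -2.18 ± 0.0751 for ID3 and -0.41 ± 0.0550 for TCF3 (SE, adjusted p = 1.26e-07, 6.62e-09 and 0.000113, limma). Between the controls 5 of the 9 were called higher in Farage (TCF7, LEF1, RUNX3, ETS1 and ID2) and 3 lower (RUNX1, TCF3 and ID3). Of all genes tested, 34.5% were called higher and 29.6% lower in this comparison. TCF7, LEF1 and RUNX3 stayed under 1 FPKM in every SU-DHL-8 library and passed the filter only through Farage, so their difference between the lines is a description.

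Genes beside the alpha and delta loci did not share a direction. DAD1, an oligosaccharyltransferase subunit gene that lies just beyond TRAC, had 116, 114 and 119 FPKM in Farage morusinol, against 147, 142 and 142 in Farage control, and fell by 0.30 ± 0.0609 (SE; adjusted p = 0.00243, limma). ABHD4, the next tested gene, had 11.8, 11.2 and 9.84 FPKM in Farage morusinol, against 5.06, 4.30 and 4.28 in Farage control, and rose by 1.11 ± 0.0778 (SE; adjusted p = 1.41e-06, limma). METTL3, on the other side of the loci, averaged 5.69 ± 0.562 FPKM in Farage morusinol and 7.93 ± 0.285 in Farage control (SD, n = 3 each) and fell by 0.42 ± 0.0614 (SE; adjusted p = 0.000278, limma). The 6 protein-coding genes that flank the beta locus entered none of the tests. Of the 6 that flank the gamma locus, STARD3NL rose in both lines, VPS41 was called in neither, and the other 4 were near 0.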

How the data were processed

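RNA sequencing of 12 libraries was analysed from the single table of FPKM that the authors deposited. Total RNA went into SMARTer mRNA libraries, per the labels' protocols. No source used here names the annotation release, the program that aligned or counted reads, or whether counting used strand. The submitters' processing notes name only the mouse builds GRCm38 and mm10, but the identifiers are human Ensembl ones, of which 58297 of 61466 matched GENCODE release 29 (GRCh38), the source of positions, lengths and sequences. Columns marked mor were taken as morusinol and those marked n as control. The 13 mitochondrially encoded genes are listed at 0, so a 0 can be a gene that was not counted.

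Values were transformed to log2(FPKM + 1), which understates changes of low rows. Genes with at least 1 FPKM in at least 3 libraries (17574) were fitted in limma 3.58.1 (R 4.3.3) with 1 mean per group over all 12 libraries, a trended robust prior and no replicate block. P-values were two-sided and adjusted by Benjamini-Hochberg over all genes tested, with calls at 0.05. On simulated data the fit recovered most changed genes, but its false calls exceeded the nominal share. FPKM gives no counts, so depth was estimated from the steps of the values, with the smallest step taken as 0.5 fragment; 97.7% of the values of these rows fell on a whole or a 0.5 step, within 0.02 fragments. Levels set across rows are per length. Joined levels are sums of fragments over rows divided by their summed length, without a test.

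Rows were named if they were constant regions, passed the filter, were called, or were among the 3 highest V, D or J rows of a locus in a line. The members and lists were chosen with earlier results of these data known. Alternatives were pseudocounts of 0.1 and 0.5, other filters and scalings, other priors, only the groups compared, a replicate block, and each library left out in turn. Python 3.11.15 with pandas 2.3.3 was used for the tables. No column outside the 12 libraries was used. A further marker of the B cell list is not reported here.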

Additional observations from a re-analysis of the deposited data

Results flagged for a closer look

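The morusinol response differed between the lines by the limma interaction term for 13 of the 83 rows tested, where 34.9% of all genes tested differed. It also differed for 7 of 9 other genes (LCK, RAG1, RAG2, TCF7, LEF1, ETS1 and ABHD4, but not RUNX3 or DAD1). These 9 were picked by name, so the count is not a share of the listed genes. Values are the log2(FPKM + 1) response in Farage minus that in SU-DHL-8. It was 1.12 for TRBC2, -1.45 for TRGV9, -1.32 for TRGV7 and -1.38 for TRAV30. For rows at or near 0 in SU-DHL-8 it was -1.05 for TRDC, -2.47 for TRDJ4, -2.03 for TRDJ2, -1.25 for TRAV2, -3.48 for TRAJ4, -2.69 for TRAJ30, -1.81 for TRAJ33, -1.78 for TRAJ24 and -0.86 for TRAJ14. The sizes for rows listed at 0 in a whole group depend on the pseudocount, and TRAV30, TRDC, TRDJ4, TRDJ2, TRAV2, TRAJ4 and TRAJ30 passed the filter only through the group where they were high, so their differences lend no weight. Outside the loci it was -1.05 for LCK, -1.24 for RAG1, -0.52 for RAG2, 0.42 for TCF7, 0.96 for LEF1, -0.59 for ETS1 and 0.68 for ABHD4. LCK, TCF7, LEF1, TRAJ33, TRAJ24 and TRAJ14 stayed under 1 FPKM in every SU-DHL-8 library, and RAG1, RAG2, TRGV9 and TRGV7 in every Farage library. Each of them passed the filter only through the other line, so its term largely repeats the response of that line. METTL3, beside the alpha and delta loci, also differed, by -0.37. So did ID3, TCF12 and TCF3 of the factors that act on the loci in T cells, by 2.15, 0.59 and 0.27. All 5 B cell markers differed, by 1.95 for CD79A, 0.96 for CD22, -1.38 for MS4A1, -1.15 for CD79B and -0.81 for PAX5. Of the recombination machinery, XRCC6 and NHEJ1 differed too, by 0.30 and 0.54. The calls for TRAJ24 and TRDJ2 were lost under 12 of 20 and 11 of 19 alternatives, with an adjusted p of up to 0.0975 and 0.0781 in limma, and among these alternatives were fits without single libraries of either line.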

How the results depend on the processing

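Of the 19 rows called with morusinol in Farage, 10 kept their call under each alternative in which they were tested (TRBC2, TRAV2, TRDC, TRDJ2, TRDJ4, TRAJ4, TRAJ14, TRAJ24, TRAJ30 and TRAJ33); all 5 in SU-DHL-8, all 74 between the controls and 11 of 13 interaction calls did so. TRAV2, TRDC, TRDJ2, TRDJ4, TRAJ4, TRAJ30 and TRAV30 were not tested under the filter of at least 6 libraries. Each of them passed the main filter only through the group where it was high, so its kept calls lend no weight. Between the controls, rows at 0 in SU-DHL-8 passed only through Farage, and TRBC1, TRGV7 and TRGV9 passed only through SU-DHL-8. Their kept calls are likewise a description. For the interaction, TRAJ14, TRAJ33, TRGV7 and TRGV9 kept their calls but reached 1 FPKM in libraries of 1 line alone. Without a filter the SU-DHL-8 count was 8, of which 5 were shared with the 5 above. With at least 1 FPKM in at least 6 libraries the interaction count was 7 among the 67 rows then tested, where fewer rows could be called. Leaving out each library in turn gave 14 to 22 rows in Farage (lowest without Farage control 3, highest without Farage morusinol 1), 5 to 7 in SU-DHL-8, 74 to 76 between the controls and 11 to 19 for the interaction. Leaving out each library also turned the sign of 2 uncalled differences, TRBC1 in Farage (-0.15 to 0.089, positive only without Farage control 1) and the TRAC interaction (-0.10 to 0.26, negative only without SU-DHL-8 morusinol 2); the cause was not tested. Same-numbered libraries did not deviate together (correlations -0.0788 to 0.0331), and differently numbered ones ranged from -0.0957 to 0.115. With 3 libraries per group these values cannot settle whether the numbers pair the libraries. With a replicate block 21 rows were called in Farage, 5 in SU-DHL-8 and 14 for the interaction. Rescaling to TPM moved the median of all genes between the controls to 0.19, against 0.08 as deposited, and left the 71 higher and 3 lower rows. Values under about 5 fragments limit single J segments most.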
